A study of Homo sapiens with 37 samples.

Results

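The nucleosome remodeling and deacetylase complex (NuRD) was followed through the transcripts of 10 of its subunits, CHD4, HDAC1, HDAC2, MTA1, MTA2, MTA3, MBD2, MBD3, GATAD2A and GATAD2B, in K562 cells with and without ZBTB7A. The members were the rows of the deposited table whose Ensembl identifiers belong to these symbols, and all 10 were found among the 32055 genes. K562 cells are a widely used human line, established from a chronic myeloid leukemia in blast crisis, with erythroid features. The KO libraries (n = 26) came from cells electroporated with a Cas9 plasmid carrying 1 of 2 gRNAs against ZBTB7A, and the control libraries (n = 11) from cells that received the plasmid without a gRNA. Single cells were sorted and expanded into clones, but the labels give only a barcode and the genotype for each library, so several libraries may come from 1 clone, and the p-values measure only the spread between these libraries. The assay was SCRB-seq on bulk lysates, in which cDNA starts from poly(A) and which counts unique molecular identifiers (UMIs) at the 3′ end of transcripts, so that counts do not depend on transcript length.

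NuRD joins a chromatin remodeler to histone deacetylases and is a corepressor that transcription factors bring to their target genes. CHD4 is its ATPase and moves nucleosomes, HDAC1 and HDAC2 remove acetyl groups from histones, and the MTA proteins are the scaffold that holds the deacetylases. MBD2 binds methylated CpG sites, MBD3 largely lacks this ability, and the GATAD2 proteins link the MBD subunit to CHD4. Paralogs such as MBD2 and MBD3 occupy the same place in alternative forms of the complex. ZBTB7A is a zinc finger repressor that is known to act through NuRD at the fetal globin genes in erythroid cells. The comparison of KO with control libraries shows whether the transcripts of the corepressor itself differed where ZBTB7A was targeted.

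The 3 MTA paralogs held the gene with the clearest difference between the groups, MTA3, beside MTA1 and MTA2, which did not pass the test, and their promoters are printed so that these sequences can be compared. Each line gives the 250 bases before the start of the gene that lies farthest upstream in RefSeq on GRCh38.p14, read 5′ to 3′ on the strand of the gene, and capitals mark the GC box GGGCGG or its complement CCGCCC. The windows are chr14:105419577-105419826 on the plus strand for MTA1, chr11:62601866-62602115 on the minus strand for MTA2 and chr2:42493860-42494109 on the plus strand for MTA3.
MTA1: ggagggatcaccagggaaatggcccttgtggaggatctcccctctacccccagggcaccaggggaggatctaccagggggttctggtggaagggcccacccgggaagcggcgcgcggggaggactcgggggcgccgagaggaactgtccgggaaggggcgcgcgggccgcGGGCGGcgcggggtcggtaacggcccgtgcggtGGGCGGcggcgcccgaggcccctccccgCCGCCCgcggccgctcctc
MTA2: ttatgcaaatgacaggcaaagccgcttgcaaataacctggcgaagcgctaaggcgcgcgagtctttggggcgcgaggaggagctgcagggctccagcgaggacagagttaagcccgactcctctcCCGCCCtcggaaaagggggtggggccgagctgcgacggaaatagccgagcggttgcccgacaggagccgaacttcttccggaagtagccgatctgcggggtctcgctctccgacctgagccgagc
MTA3: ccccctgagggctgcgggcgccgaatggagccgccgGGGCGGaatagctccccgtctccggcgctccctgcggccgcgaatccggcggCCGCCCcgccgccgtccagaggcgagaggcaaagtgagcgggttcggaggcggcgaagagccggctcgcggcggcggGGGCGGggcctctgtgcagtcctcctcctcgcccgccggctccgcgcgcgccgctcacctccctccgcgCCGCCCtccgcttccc
The MTA3 window held 4 GC boxes and 41 CpG dinucleotides, the MTA1 window 3 and 30, and the MTA2 window 1 and 25. A search of both strands over all members found a GC box in 9 of 10 windows, HDAC2 being the member without one, against 42.6% of the 35116 windows in the RefSeq table. The letters CCAAT were present in 4 member windows and in 32.0% of all windows. The letters GATAA were present in 0 member windows and in 20.4% of all windows. Member windows held 17 to 41 CpG dinucleotides, where the median window held 11. Members gave 1 window each, whereas the RefSeq windows were limited neither to 1 start per gene nor to genes tested here. The contrast is therefore not particular to NuRD genes on these values. A match of letters describes the window and does not show that a protein binds there.

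Total UMIs ranged from 563235 to 4710809 in the control libraries (median 3518944) and from 1070250 to 4270901 in the KO libraries (median 2030965). KO libraries were thus mostly shallower, and group and depth varied together. Of 9 K562 markers measured, all passed the filter on low counts, and 5 differed between the groups: LMO2 (log2 fold change 0.51, adjusted p = 3.69e-05) and TAL1 (0.39, adjusted p = 0.0258) were higher in KO libraries, and GATA1 (-0.19, adjusted p = 0.0303), KLF1 (-0.22, adjusted p = 0.039) and NFE2 (-0.53, adjusted p = 1.41e-07) were lower. The part of these erythroid factors in the results on NuRD was not tested. There were 6 markers of other blood lineages in the table, with 6 to 201 UMIs each over the 37 libraries together. ZBTB7A transcript lay between 5.27 and 6.19 log2 CPM in control libraries (median 5.84) and between 5.44 and 6.41 in KO libraries (median 5.94), with a log2 fold change of 0.12 (SE 0.0902, adjusted p = 0.331). Since Cas9 cuts in the coding sequence and reads came from the 3′ end, these counts do not check the knockout. The control library GTTTAT was the shallowest. The KO library GGCCAC had 8.11 log2 CPM of the erythroid factor NFE2, inside the control range of 7.67 to 8.14, whereas the other 25 KO libraries lay below that range, and its values are given beside the called members. The barcodes were unevenly spread over the groups: 12 KO and 8 control libraries had 1 G or C among the 6 bases, and 14 KO and 3 control libraries had more. How the clones fall over these barcodes cannot be told from the labels.

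CHD4 and MTA3 transcripts were higher in the KO libraries, by 1.12-fold and 1.28-fold, and the other 7 subunits tested did not pass the threshold. GATAD2B was too low to test. Log2 fold changes of the 9 tested members ran from -0.12 to 0.36 with a median of 0.04, while the median over all genes tested was -0.0046. The 2 of 9 members that passed an adjusted p below 0.05 stand beside 33.8% of all 10661 genes tested, of which 17.7% were higher and 16.2% lower in KO libraries. An additional absolute log2 fold change above 0.5 was reached by 0 of 9 members and by 10.2% of all genes tested. In these bulk lysates, fewer cells carrying a transcript and less of it per cell cannot be told apart. The 10 members together took 0.1398% to 0.1556% of all UMIs in control libraries (median 0.1475%) and 0.1474% to 0.1723% in KO libraries (median 0.1562%). The ranges overlapped, the KO median lay above the highest control, and no test was run on this share. CHD4 and HDAC2 supplied the most UMIs to it, 42442 and 38050 over all libraries, so it mainly follows these genes. The part of barcode class in this share was not tested.

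**Figure D1:**
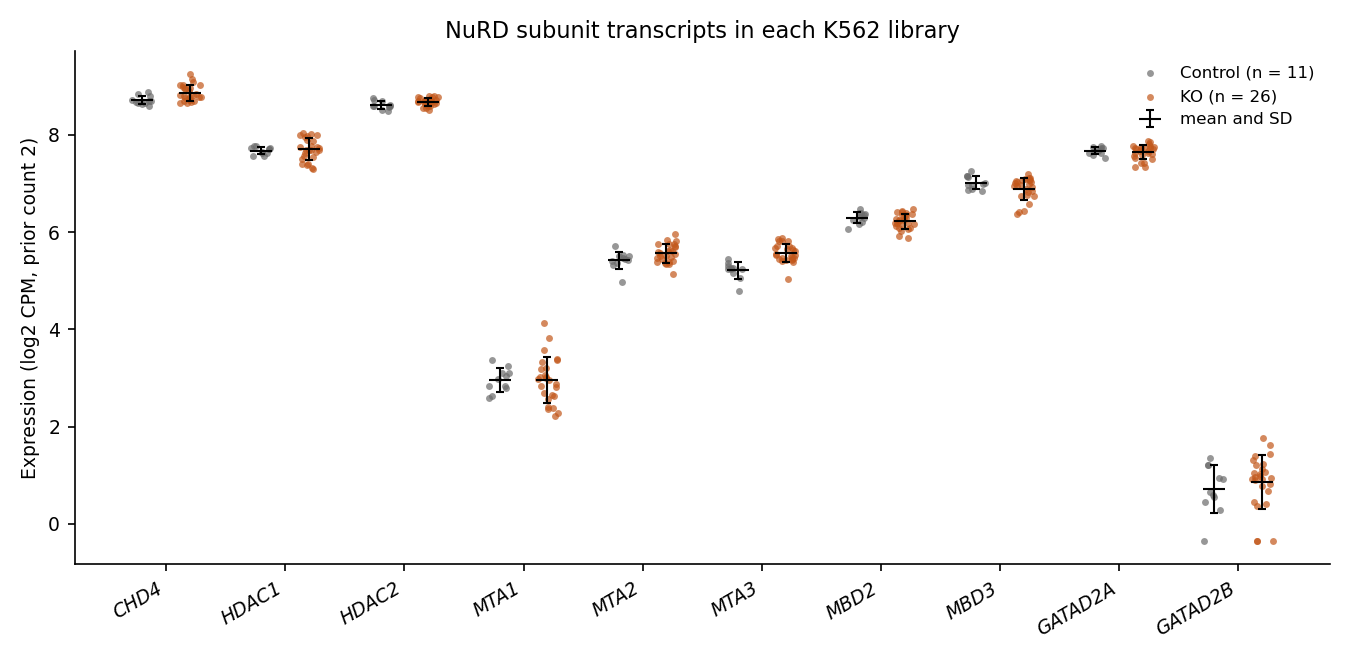
Expression of the 10 NuRD subunits on the y axis (log2 CPM with a prior count of 2) in each of 11 Control and 26 KO libraries, with mean and SD as black bars. CHD4 and HDAC2 sit highest, MTA1 and GATAD2B lowest, and only MTA3 has most KO libraries (19 of 26) above the highest control library.

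CHD4, the remodeling ATPase, was the most abundant subunit, with 234 to 2148 UMIs in a control library and 500 to 2014 in a KO library. Control libraries ranged from 8.60 to 8.88 log2 CPM (median 8.70) and KO libraries from 8.65 to 9.25 (median 8.82). The groups overlapped: 15 KO libraries lay within the control range and 11 above the highest control, led by GTTCGA. The mean was 8.71 ± 0.09 (SD, n = 11) in control libraries against 8.87 ± 0.16 (SD, n = 26) in KO libraries. This gave a log2 fold change of 0.16 (SE 0.0524, 95% interval 0.05 to 0.27, adjusted p = 0.0167), and it was 0.16 without the library GGCCAC, which stood at 8.83. The call was lost in each setting that used barcode class. With barcode class as a covariate the value was 0.12 (adjusted p = 0.0508), and among barcodes with 1 G or C it was 0.10 (adjusted p = 0.178). Among the others it was 0.16 (SE 0.0937, adjusted p = 0.366), where 3 control libraries remained and 3.24% of all genes tested passed. The part of barcode class in the difference was not tested further. Without a filter on low counts the adjusted p was 0.0572. The annotation places CHD4 on chromosome 12, 6570082 to 6614524 on the minus strand of GRCh38, where an unnamed gene, ENSG00000285238, overlaps the last 500 bases on the same strand.

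The deacetylases HDAC1 and HDAC2 did not pass the test, and they differed in spread. HDAC1 ranged from 7.55 to 7.77 log2 CPM in control libraries (median 7.70) and from 7.29 to 8.05 in KO libraries (median 7.69). The KO libraries thus reached past the control range on both sides, with 8 above, 7 below and 11 within it. Its log2 fold change was 0.04 (95% interval -0.10 to 0.17, adjusted p = 0.721). HDAC2 ranged from 8.49 to 8.76 in control libraries (median 8.59) and from 8.50 to 8.81 in KO libraries (median 8.68). Only 6 KO libraries lay above the highest control and 0 below the lowest. The log2 fold change of HDAC2 was 0.07 (95% interval 0.003 to 0.14, adjusted p = 0.0997). HDAC2 was close to the threshold: it passed with DESeq2 (0.08, adjusted p = 0.0245), with scaling by library size alone (0.10, adjusted p = 0.0166) and when the control library GGGATT was left out (0.09, adjusted p = 0.0308). HDAC1 has 2 named pseudogenes in the annotation, and how reads shared with them were counted is not given in the sources used here.

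Among the MTA scaffolds, MTA3 carried the clearest difference of the complex. Control libraries ranged from 4.80 to 5.45 log2 CPM (median 5.25) and KO libraries from 5.03 to 5.88 (median 5.54). The groups overlapped, but 19 of 26 KO libraries passed the highest control and 7 stayed within the control range. The lowest control library was the shallow GTTTAT with 15 UMIs, and the lowest KO library was GGCCAC with 61 UMIs. The mean was 5.21 ± 0.17 (SD, n = 11) in control libraries against 5.57 ± 0.19 (SD, n = 26) in KO libraries. The fitted difference on the log2 scale was 0.36 (SE 0.0659, 95% interval 0.23 to 0.49, adjusted p = 4.37e-05). It was 0.38 (adjusted p = 3.60e-06) without GGCCAC and 0.34 (adjusted p = 9.55e-05) without GTTTAT. Within the barcodes that have 1 G or C it was 0.34 (adjusted p = 0.00141), with 9 of 12 KO libraries above the highest of 8 controls. Among the other barcodes it was 0.41 (adjusted p = 0.0989), with 13 of 14 KO libraries above the highest of 3 controls. In that smaller comparison 3.24% of the genes tested passed. The MTA3 level and the total UMIs of a library had a correlation of 0.41 across KO (n = 26) and 0.63 across control libraries (n = 11), and with every library thinned to the smallest total the fitted difference was 0.42 (adjusted p = 0.0177). MTA3 lies on chromosome 2, 42494569 to 42756947 on the plus strand, and has 1 named pseudogene.

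MTA2 and MTA1 did not pass. MTA2 ranged from 4.97 to 5.71 log2 CPM in control libraries (median 5.44) and from 5.15 to 5.96 in KO libraries (median 5.56). Most libraries overlapped, with 7 KO libraries above the control range. The log2 fold change of MTA2 was 0.12 (95% interval -0.01 to 0.25, adjusted p = 0.147). Its sign differed between the barcode classes, at 0.23 (adjusted p = 0.0342) among barcodes with 1 G or C and -0.07 (adjusted p = 0.809) among the others. MTA1, the rarest tested subunit, had 3 to 36 UMIs in a control library and 6 to 29 in a KO library. It ranged from 2.58 to 3.37 log2 CPM in control libraries (median 2.98) and from 2.23 to 4.13 in KO libraries (median 2.97). With 5 KO libraries above and 6 below the control range, the fitted difference was 0.00, and its 95% interval of -0.33 to 0.33 shows that a change as large as that of CHD4 was not detectable for MTA1 at this depth. The MTA1 value was -0.26 (adjusted p = 0.223) among barcodes with 1 G or C and 0.30 (adjusted p = 0.681) among the others. An unnamed gene, ENSG00000257270, overlaps the 3′ end of MTA1 on the opposite strand, and whether counting used the strand is not given in the sources used here.

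**Figure D2:**
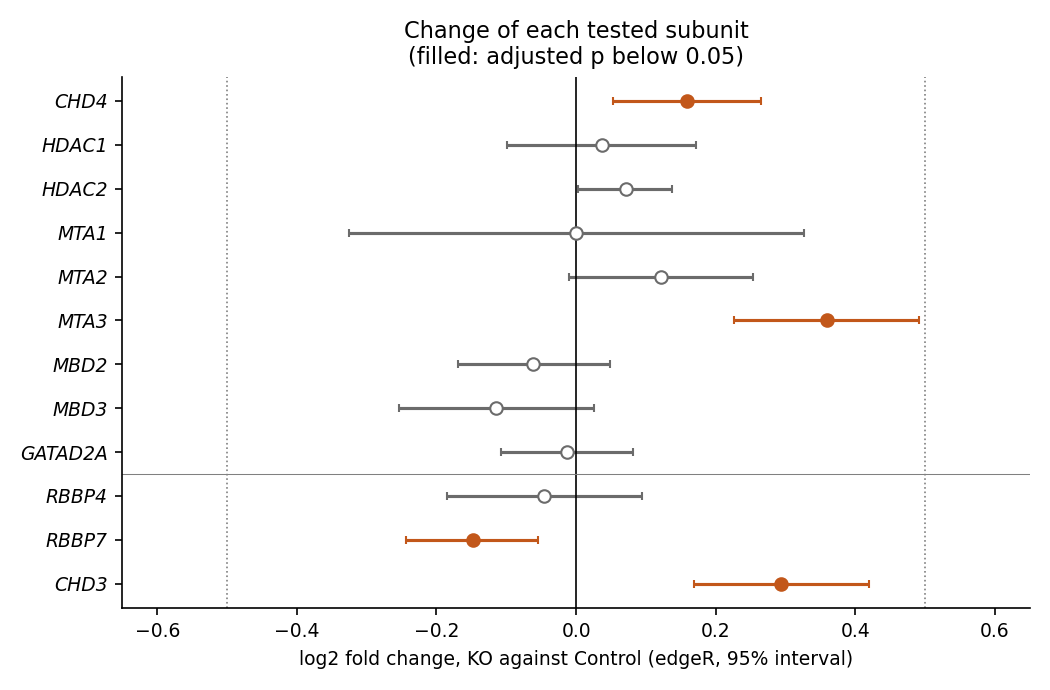
Log2 fold change of KO against Control on the x axis with its 95% interval (edgeR) for the 9 tested members and, below the line, 3 further core subunits. Filled points passed an adjusted p below 0.05, and the dotted lines mark an absolute log2 fold change of 0.5, which no point reached.

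The methyl-CpG binding subunits MBD2 and MBD3 had negative fitted values that did not pass. MBD2 ranged from 6.06 to 6.47 log2 CPM in control libraries (median 6.31) and from 5.88 to 6.47 in KO libraries (median 6.24). Its groups overlapped almost wholly, with 3 KO libraries below the control range. The log2 fold change of MBD2 was -0.06 (95% interval -0.17 to 0.05, adjusted p = 0.406). MBD3 ranged from 6.85 to 7.25 in control libraries (median 6.99) and from 6.36 to 7.20 in KO libraries (median 6.95). Here 8 KO libraries lay below the lowest control and 0 above the highest. The log2 fold change of MBD3 was -0.12 (95% interval -0.25 to 0.03, adjusted p = 0.204).

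Of the GATAD2 proteins, GATAD2A supplied nearly all UMIs. GATAD2A ranged from 7.53 to 7.77 log2 CPM in control libraries (median 7.67) and from 7.34 to 7.87 in KO libraries (median 7.68). With 4 KO libraries above and 6 below the control range, the log2 fold change was -0.01 (95% interval -0.11 to 0.08, adjusted p = 0.866). GATAD2B had 105 UMIs over all libraries, 0 to 8 in a control and 0 to 7 in a KO library. It stood at 0 UMIs in 1 control and 3 KO libraries, which allows up to 0.794 to 5.33 CPM in these libraries by counting error alone (a limit of 3 UMIs).

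The order of levels was the same in both groups down to MBD2: CHD4, HDAC2, HDAC1, GATAD2A, MBD3 and MBD2, with the MTA genes and GATAD2B last. CHD4 exceeded HDAC2 by 0.10 ± 0.09 log2 (SD, n = 11) in control libraries against 0.19 ± 0.17 (SD, n = 26) in KO libraries, and was higher in 10 of 11 and 23 of 26. HDAC1 and GATAD2A were neighbours that did not differ beyond their spread, at 0.00 ± 0.08 in control (n = 11) and 0.05 ± 0.34 in KO libraries (n = 26). The place that changed hands was that of MTA2 and MTA3. MTA2 had more UMIs than MTA3 in 11 of 11 control libraries, by 0.21 ± 0.17 log2, and in 12 of 26 KO libraries, where MTA3 was ahead in the other 14 and the mean difference was 0.01 ± 0.32.

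As a share of the UMIs of all MTA genes, MTA3 took 42.6% ± 2.57 (SD, n = 11) in control libraries against 46.6% ± 5.77 (SD, n = 26) in KO libraries, and 17 KO libraries lay above the highest control share of 45.4%. MTA2 took 49.2% ± 2.92 (SD, n = 11) and 46.1% ± 5.09 (SD, n = 26), with 15 KO libraries below the lowest control share. MTA1 took 8.23% ± 1.24 (SD, n = 11) and 7.26% ± 2.77 (SD, n = 26). The MTA3 share differed by 4.06 percentage points between the groups, and by 2.71 among barcodes with 1 G or C, with overlapping ranges, and no test was run on it. HDAC1 took 34.3% ± 1.67 (SD, n = 11) of the HDAC1 and HDAC2 UMIs in control libraries against 33.7% ± 4.32 (SD, n = 26) in KO libraries. The means differed by less than either SD, and 6 KO libraries lay above and 6 below the control range of 31.7% to 36.8%. MBD2 took 37.7% ± 3.36 (SD, n = 11) of the MBD2 and MBD3 UMIs in control libraries against 38.7% ± 5.22 (SD, n = 26) in KO libraries.

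**Figure D3:**
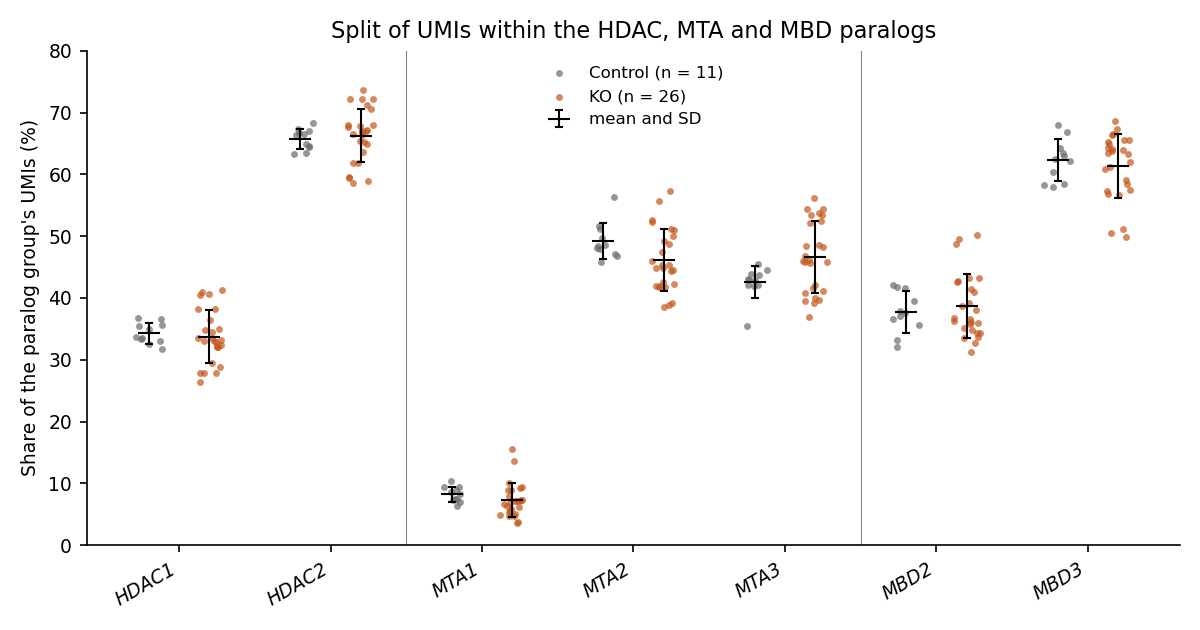
Share of each paralog in the UMIs of its group (y axis, percent) for HDAC1 with HDAC2, the 3 MTA genes, and MBD2 with MBD3, in 11 Control and 26 KO libraries, with mean and SD. For MTA3, 17 KO libraries exceed every control share, and the HDAC1 share spreads past the control range on both sides.

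The spread between KO libraries differed from subunit to subunit. For HDAC1 the SD of log2 CPM was 0.07 in control libraries, where UMI counting alone gives 0.07, and 0.23 in KO libraries, where counting gives 0.07. The ratio of the KO to the control SD was 3.05 for HDAC1, at the 97.1th percentile of the genes tested, against a median of 1.25. It was 1.95 for GATAD2A, 1.80 for CHD4 and 1.72 for MBD3. HDAC2, MTA2 and MTA3 had ratios of 0.97, 1.06 and 1.09. HDAC2 was also among the steadiest genes, with a biological coefficient of variation of 0.061, at the 2.92th percentile, where the median gene had 0.125. For MTA1 the SD was 0.25 in control libraries, below the counting value of 0.39, and 0.47 in KO libraries, above the counting value of 0.40.

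**Figure D4:**
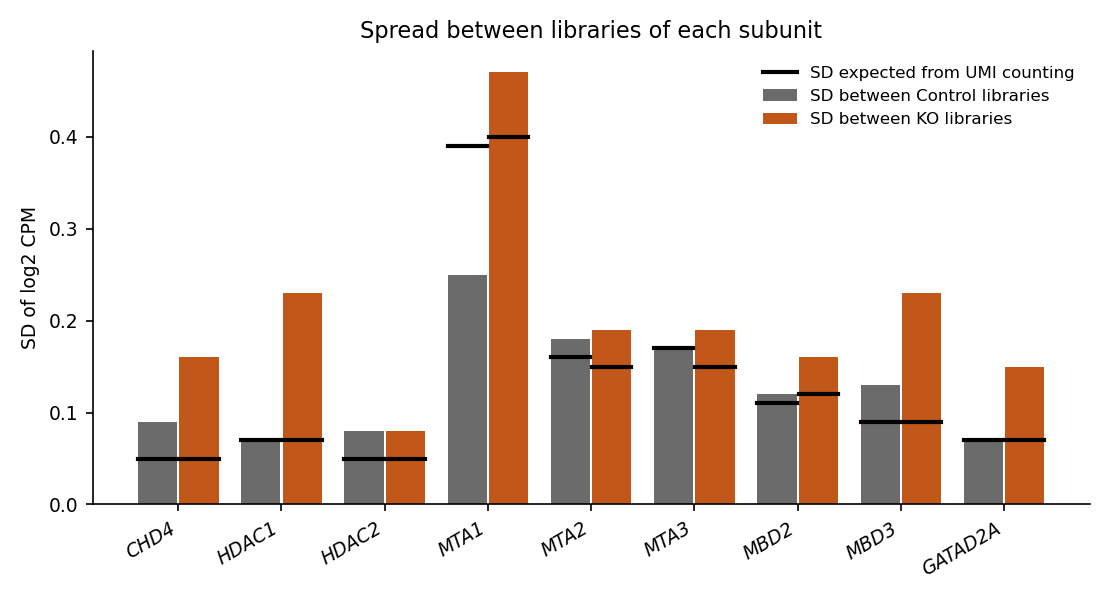
SD of log2 CPM between Control and between KO libraries (bars, y axis) for the 9 tested members, with the SD that UMI counting alone would give as black lines. HDAC1 has an SD of 0.07 in Control and 0.23 in KO libraries with the same counting level, while HDAC2 has 0.08 in both.

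The libraries outside the control range were partly shared between subunits. All 6 KO libraries below the control range of GATAD2A were among the 8 above the control range of HDAC1, which is 75.0% of those 8. In the opposite direction, 2 of the 7 KO libraries below the control range of HDAC1 (28.6%) were among the 4 above that of GATAD2A. Of the 7 KO libraries below the control range of HDAC1, 6 were also among the 8 below that of MBD3 (85.7% and 75.0%). The 5 libraries above the range of MTA1 were all among the 11 above that of CHD4 (45.5% of the latter), and 8 of those 11 were among the 19 above the range of MTA3 (72.7% and 42.1%). These pairs were picked after their values were seen and carry no test. The 5 libraries shared by MTA1 and CHD4 all had barcodes with more than 1 G or C. KO means in that class were 8.94 log2 CPM for CHD4 and 3.09 for MTA1, against 8.78 and 2.79 in the other class. The part of barcode class in this sharing was not tested. Across the 26 KO libraries, which share scaling and may share clones, the 36 pairs of tested members had Pearson correlations from -0.69 for HDAC1 with GATAD2A (Spearman -0.65) to 0.64 for CHD4 with MTA1 (Spearman 0.58). Without the 2 libraries farthest from the median of HDAC1 and of CHD4 these were -0.70 and 0.54. Over the 11 control libraries the values were 0.39 and -0.05. Depth also varied with the first pair: with log2 total UMIs, GATAD2A had a correlation of 0.59 and HDAC1 of -0.38 across KO libraries. Across control libraries these were -0.44 and -0.21. The part of depth in the pattern of HDAC1 and GATAD2A was not tested.

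The genes most like the called members were searched among the 8604 tested genes that averaged 10 CPM or more. For CHD4 they were CBLB, a ubiquitin ligase (r = 0.83 over 37 libraries), CLCA1, a secreted regulator of chloride channels (0.83), and HEY1, a transcriptional repressor downstream of Notch (0.82). Within the KO libraries alone these correlations were 0.89, 0.82 and 0.84 (n = 26), and within the controls 0.03, 0.18 and 0.18 (n = 11). For MTA3 they were ENAH, an actin regulator (0.84), LAMC1, a laminin chain (0.83), and CKAP4, a membrane protein of the endoplasmic reticulum (0.82). Within the KO libraries these were 0.77, 0.75 and 0.84 (n = 26), and within the controls 0.73, 0.32 and -0.32 (n = 11). All 6 genes were themselves higher in KO libraries, with log2 fold changes from 0.59 to 3.45, so the correlations over all 37 libraries include the difference between the groups.

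Of the core subunits outside the 10, CHD3, the alternative ATPase, was higher in KO libraries and RBBP7, a histone chaperone, was lower. CHD3 ranged from 5.29 to 5.81 log2 CPM in control libraries (median 5.53) and from 5.65 to 6.12 in KO libraries (median 5.82), and the highest control was passed by 13 of 26 KO libraries. Its log2 fold change was 0.29 (95% interval 0.17 to 0.42, adjusted p = 2.90e-04), yet CHD4 still supplied 90.0% ± 1.62 (SD, n = 11) of the UMIs of CHD4 and CHD3 in control libraries against 89.0% ± 1.35 (SD, n = 26) in KO libraries. RBBP7 fell by 0.15 on the log2 scale (95% interval -0.24 to -0.05, adjusted p = 0.0126), with 8 KO libraries below the lowest control and 0 above the highest. For its paralog RBBP4 the value was -0.05 (adjusted p = 0.654). RBBP4 has 7 named pseudogenes, and the 3′ ends of RBBP4 and RBBP7 overlap the genes SYNC and TXLNG on the opposite strand. CHD5 with 26 UMIs and CDK2AP1 with 18 UMIs over all libraries were too low to test. CDK2AP1 has 1 named pseudogene, and whether its low count comes from low expression or from read assignment was not tested. Among 8 tested further subunits and partners, which include these genes, 2 were higher and 2 lower, beside 33.8% of all genes tested, with a median log2 fold change of 0.04. These 4 calls became 0 after thinning, 2 without a filter on low counts, 2 among barcodes with 1 G or C and 1 among the other barcodes. The share of all genes tested that passed in these settings was 20.7%, 10.7%, 25.4% and 3.24%, in the same order. The remaining called genes were PWWP2A, a reader that binds an MTA-containing form of the complex (0.21, adjusted p = 0.0125), and its paralog PWWP2B (-0.68, adjusted p = 0.0248). PWWP2B was below the lowest control in 18 of 26 KO libraries.

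SIN3 and CoREST, corepressor complexes that also hold HDAC1 and HDAC2, and NCoR/SMRT, which holds HDAC3, were set beside NuRD. The shares over all genes tested are the 33.8% called, 17.7% higher and 16.2% lower given above. The share called was 20.7% after thinning and 3.24% among barcodes with more than 1 G or C. It was 35.6% under limma-voom and 33.4% with library size alone. Of 13 SIN3 genes tested, 5 were higher and 1 lower, with a median log2 fold change of 0.14, and the 6 calls became 2 after thinning and 1 among barcodes with more than 1 G or C. SUDS3, a SIN3 subunit that supports its deacetylase, rose by 0.45 (adjusted p = 3.18e-08) and SAP130 by 0.38 (adjusted p = 7.37e-05). In 24 of 26 KO libraries SUDS3 exceeded every control. BRMS1L rose by 0.30 (adjusted p = 0.0384), SAP30L by 0.26 (adjusted p = 0.0113) and ARID4B by 0.21 (adjusted p = 0.0191), and SAP18 had a value of -0.18 (adjusted p = 0.00814). Of 6 CoREST genes tested 1 was lower, the scaffold RCOR1 (-0.25, adjusted p = 0.0037), and the list's median was -0.01, with 2 calls under limma-voom and library size alone and 0 among barcodes with more than 1 G or C. Of 7 NCoR/SMRT genes 1 was higher, the deacetylase HDAC3 (0.26, adjusted p = 3.56e-05), and 2 were lower, TBL1XR1 (-0.17, adjusted p = 0.00832) and CORO2A (-0.89, adjusted p = 2.00e-05), with a median of -0.05, and 1 of these 3 calls was left among barcodes with more than 1 G or C.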

How the data were processed

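RNA of 37 K562 libraries, 26 KO and 11 Control, was measured by bulk SCRB-seq. The authors mapped reads to hg38 with STAR (2.6.0a in the submitters' processing notes), ran zUMIs with the Ensembl GRCh38.84 annotation to count UMIs by gene, and deposited the raw UMI counts. Columns were matched to labels by barcode. GENCODE 44 on GRCh38, a later annotation, gave positions and the symbols of 31323 of the 32055 identifiers, and RefSeq gave the promoters.

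The test was the robust quasi-likelihood test of edgeR 4.0.16 (R 4.3.3) on group alone, after filterByExpr and TMM, and p-values were adjusted by Benjamini-Hochberg over 10661 genes. Adjusted p-values are from this fit unless another tool, setting or set of libraries is named. Each alternative fit was adjusted over the genes tested in it. A call needed an adjusted p below 0.05. Log2 CPM used a prior count of 2. Counts of UMIs from 563235 to 4710809 per library set the precision, and intervals for GATAD2B cover counting error only. The analysis was tested on simulated counts. In each group, no pair of libraries agreed within sampling noise (chi-square per degree of freedom 1.155 or more over genes with 20 or more UMIs in the pair). The closest KO pair, ATCAAA with TGTTTA, stood at 1.155, and the closest control pair, AAGATT with TTAATC, at 1.49. These values do not show that libraries came from separate clones. Levels, shares, spreads and correlations are descriptions without a test.

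Alternatives were limma-voom (limma 3.58.1), DESeq2 1.42.0, RLE factors, library size alone, no filter, a stricter filter (10 CPM on average), barcode class in the model or each class alone, leaving out the KO library GGCCAC, the control library GTTTAT or each library in turn, and thinning to the smallest total. The members, lists (NuRD partners, SIN3, CoREST, NCoR/SMRT, K562 and other lineage markers) and alternatives were chosen with earlier results of these data known. A list of relatives of the members is counted among the comparison lists but is not reported here by gene. Named genes were all members, ZBTB7A, 5 further core subunits, called list genes and the 3 genes most like each called member. The called K562 markers were named after their values were seen.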

Additional observations from a re-analysis of the deposited data

How the results depend on the processing

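The number of members that passed was 2, and it was 2 or 3 under limma-voom, DESeq2, RLE factors, library size alone, the filter at 10 CPM, barcodes with 1 G or C, thinning and leaving out each library in turn. With barcodes of 1 G or C the 2 were MTA2 and MTA3 in place of CHD4 and MTA3. CHD4 lost its call there, in the other barcode class, with barcode class as a covariate and without a filter. The number was 1 without a filter on low counts, 1 with barcode class as a covariate and 0 among barcodes with more than 1 G or C. In this last setting 3 control libraries remained and 348 of 10735 genes (3.24%) passed. The share of all genes tested that passed was 10.7% without a filter, 33.6% with barcode class as a covariate and 25.4% among barcodes with 1 G or C. With DESeq2 3712 and with limma-voom 3793 genes passed, against 3606. The number of members past the fold threshold was 0 under all alternatives run. The genes called over the comparison lists numbered 16, and 3 among barcodes with more than 1 G or C and 7 after thinning, where 7871 genes were tested. Of all genes tested, 33.8% passed in the main fit, 3.24% in that barcode class and 20.7% after thinning. Leaving out each library gave 14 to 18. MTA3 was called under every alternative but barcodes with more than 1 G or C, and its log2 fold change was 0.34 to 0.39 (adjusted p 3.60e-06 to 0.000177) when each library was left out. CHD4 ranged from 0.14 to 0.18 (adjusted p 0.00937 to 0.0303) in the same way. Signs turned for GATAD2A (0.019 with library size alone, 0.006 among barcodes with more than 1 G or C) and, in that class, for HDAC1 (-0.045) and MTA2 (-0.067), and the cause was not tested. MTA1, whose main value of 0.00 has no sign to turn, stood at -0.262 among barcodes with 1 G or C and 0.297 among the others. None of these values was called. Thinning left MTA1 under the filter, and the 10 CPM filter removed it. No paired analysis was possible because the labels give no replicate numbers. Depth limits MTA1 and GATAD2B most, with at most 36 and 8 UMIs per library.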
